A study of Mus musculus with 8 samples.

Results

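The Rab GTPases, the switch proteins of membrane traffic, were followed here in whole kidney RNA. They were taken by symbol, as every gene named Rab plus a number and at most 1 further letter, with at least 10 expected counts in at least 4 of the 8 libraries. Of 21759 genes in the table, 56 carried such a symbol and 49 met the minimum. Rab1a, unlike Rab1b, was not among the 56, so its level is not known here. The samples were kidneys of 8 male knock-in mice, 8 months old, of a model of MUC1 kidney disease that the sample titles mark FS. The vehicle group was 4 such mice given saline, and the BRD4780 group was 4 such mice given the small molecule BRD4780 at 50 mg/kg, each once a day over 7 days. Both groups therefore carried the disease allele, the labels give no further detail of it, and no mouse without it was analysed here. The titles of the treated samples say AGN50 where the treatment label says BRD4780, and the label was followed. Libraries are numbered 1 to 4 within each group, and values are given in that order.

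A Rab protein carries a lipid tail, made by geranylgeranyl transferase, that holds it on a membrane, and it is taken off again by GDP dissociation inhibitors. Exchange factors load it with GTP, and in that state it recruits effectors such as tethers, motors and sorting complexes, until a GTPase-activating protein switches it off. Each organelle bears its own set of Rabs, and the kidney tubule, which takes up filtered protein at the apical surface and secretes mucins and uromodulin, depends on endocytic, recycling and secretory Rabs.

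The libraries held 5.74 to 28.5 M counts, and the shallowest was BRD4780 replicate 4. BRD4780 replicate 3 stood apart from the other treated libraries. Its counts differed least from those of vehicle replicate 4 (chi-square per degree of freedom 19.1, against 31.7 to 90.3 from the other treated libraries). It also had the highest level of the proximal tubule gene Lrp2, at 2334 CPM against 1423 to 1536 in the other treated libraries and 1805 to 2096 in the vehicle group. Results that rest on it are given with and without it. Lrp2, the thick ascending limb gene Umod and the podocyte gene Nphs1 were detected in all 8 libraries.

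Promoter sequences of 250 bases before and 50 after the annotated start were matched by symbol for 41 of the 49 members (53 windows, from RefSeq on GRCm38.p6). They were searched on both strands for 4 motifs of organelle and stress control. CACGTG, the E-box at the centre of the element read by the lysosomal regulator TFEB, was found in the windows of 6 members, Rab5a, Rab20, Rab21, Rab23, Rab24 and Rab27a. That was 11.3% of the Rab windows and 7.15% of all 32851 windows. TGACGTCA, the cyclic AMP response element, was found in those of Rab5a and Rab25 (3.77% against 1.79%). Neither TTGCATCA, an ATF4 response core (0.895% of all windows), nor the ER stress response element, CCAAT and CCACG with 9 bases of any kind between them (0.119%), was in any Rab window. The E-box and the cyclic AMP element share the letters ACGT, but no match to one overlapped a match to the other in these windows. The stretch before the start of Rab5a is shown because it was the only one with both motifs, and part of that of Rab21 is shown as a second early endosomal Rab with the E-box. Both run 5′ to 3′ along the gene, with motif letters in capitals. Rab5a lies on the plus strand (chr17:53478984-53479233) and Rab21 on the minus strand (chr10:115315595-115315671).
Rab5a: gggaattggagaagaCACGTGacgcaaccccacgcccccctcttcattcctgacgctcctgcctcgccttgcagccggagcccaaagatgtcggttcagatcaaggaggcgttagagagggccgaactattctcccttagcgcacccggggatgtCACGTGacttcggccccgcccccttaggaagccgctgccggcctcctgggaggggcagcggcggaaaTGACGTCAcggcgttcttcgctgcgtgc
Rab21: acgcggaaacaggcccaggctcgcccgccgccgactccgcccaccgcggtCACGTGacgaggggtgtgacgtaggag
The Rab5a matches began 235 and 95 bases before the start for the E-box and 28 bases before it for the cyclic AMP element. A match is a match of letters only, and neither Rab5a nor Rab21 passed the test of treatment described below.

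The 49 members spanned a 1070-fold range of level per length in the vehicle kidneys. Levels between genes are compared here as CPM (counts per M, with TMM-scaled totals) per kb of exon. The early endosomal Rab5c was highest, at 134 ± 0.567 CPM per kb (SD, n = 4). The ER-to-Golgi Rabs Rab1b (108 ± 2.91) and Rab2a (92.5 ± 3.65) and the recycling Rab Rab11a (42.0 ± 2.25) came next. These 4 genes were each separated from the next in all 4 vehicle libraries, Rab11a from the epithelial Rab Rab17 (35.1 ± 1.52) included. Below them, Rab10 (32.0 ± 1.29), Rab34 (30.2 ± 2.17), Rab5b (29.7 ± 1.66), Rab24 (28.6 ± 1.22) and Rab9 (26.8 ± 1.44) formed a run of overlapping levels, and Rab17 overlapped Rab10. Over the whole order, 11 of 48 neighbouring pairs did not overlap between libraries. The 10 highest members held 63.0% of the summed level, and 9 of them were also among the 10 highest when the longest transcript was used as length. At the other end were Rab37 (0.125 ± 0.038), Rab30 (0.153 ± 0.0278), Rab3b (0.357 ± 0.152), Rab27b (0.359 ± 0.0885) and Rab39b (0.453 ± 0.148).

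**Figure D1:**
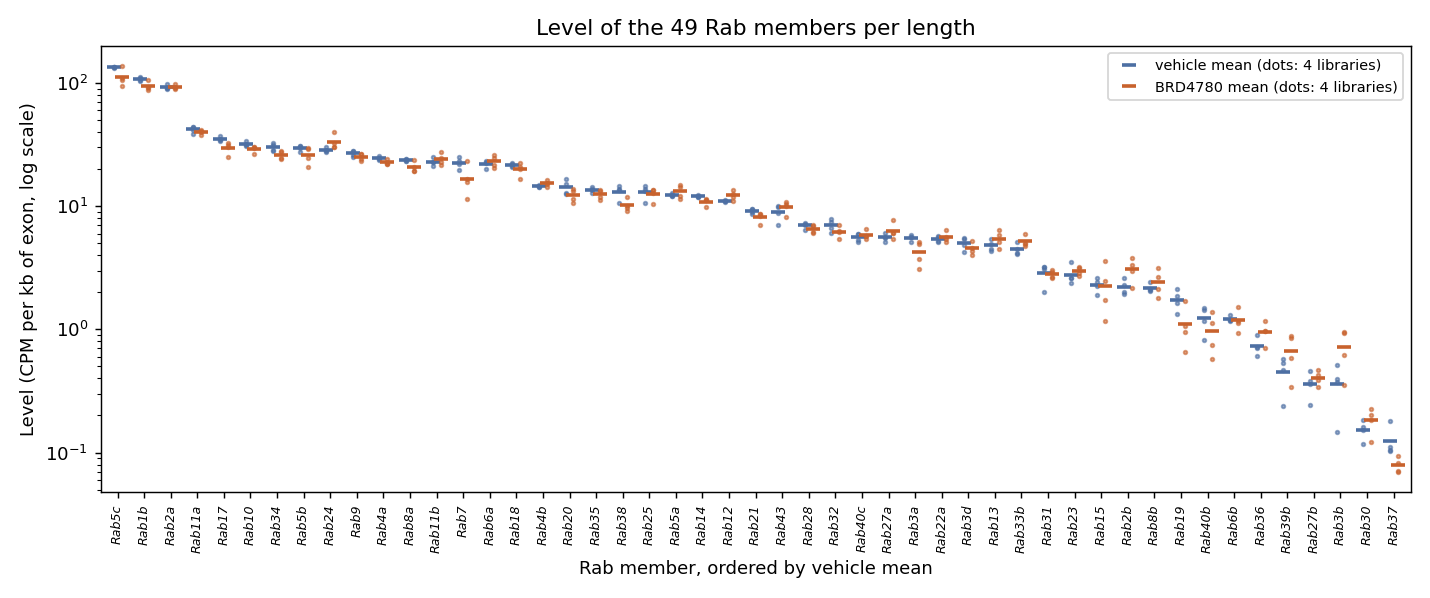
Level of each of the 49 Rab members as CPM per kb of exon (log axis), ordered by the vehicle mean; dots are the 4 libraries of each group and bars their means. Rab5c, Rab1b and Rab2a lie apart at the top, and the 1070-fold range ends at Rab37.

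The count minimum left out 7 genes, Rab3c, Rab9b, Rab26, Rab33a, Rab39, Rab42 and Rab44, with 9 to 58 counts in all 8 libraries together. Just inside it was Rab37, a secretory granule Rab, with 27, 16, 9 and 13 counts in the vehicle libraries and 9, 13, 10 and 3 in the treated ones. Just outside was Rab42, with 10, 9, 7 and 11 counts and 7, 3, 7 and 2 counts. Rab19, Rab30 and Rab40b reached 10 counts in 7 libraries each, the exception being the shallow BRD4780 replicate 4.

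Rabs of the same subfamily were unequally abundant. Within each of 8 subfamilies with several members, the share of each gene in the summed level per kb was taken as a description with no test. Rab5c made up 76.1% ± 0.787 of the Rab5 level in vehicle kidneys and 73.9% ± 2.26 in treated ones. Rab5b (16.9% and 17.2%) and Rab5a (7.04% ± 0.133 and 8.87% ± 1.63) supplied the rest. Rab2a was 97.7% of Rab2, Rab6a 94.8% of Rab6, Rab27a 94.0% of Rab27 and Rab8a 91.6% of Rab8 in the vehicle group, so 1 gene dominated each of these pairs. The Rab11 level was spread more evenly, at 53.8% for Rab11a, 29.5% for Rab11b and 16.7% for the epithelial member Rab25. In the Rab4 pair the shares of the groups did not overlap, a feature singled out after its values were seen. Rab4a was 62.2%, 63.5%, 62.9% and 62.7% of Rab4 in the vehicle libraries and 59.9%, 58.4%, 59.8% and 60.6% in the treated ones. Rab4b shares 1368 bases of exon with a gene on the same strand. Where Rabs are alike in sequence, which was not measured, reads may be divided between them by the authors' counting. Values that were not whole, the mark of reads shared among genes or transcripts, occurred in all 8 libraries for 3 members (Rab5a, Rab6a and Rab33b) and in none for 18.

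With BRD4780, no Rab member passed the threshold. In edgeR's quasi-likelihood test, 0 of 49 were higher and 0 lower at an adjusted p under 0.05, where 2.92% of 13474 genes were called (2.3% higher and 0.623% lower). DESeq2 also called 0 members, where it called 10.1% of all genes. At an unadjusted p under 0.05, 2 members were higher (Rab2b and Rab3b; 4.08%, against 13.9% of all genes) and 8 were lower (Rab38, Rab17, Rab1b, Rab34, Rab5c, Rab7, Rab8a and Rab3a; 16.3%, against 10.7%). Together these were 10 of 49, where the background in either direction was 24.6%. The groups did not overlap for 5 members, all lower (Rab17, Rab14, Rab10, Rab3a and Rab37; 10.2%, against 5.16% of genes lower and 7.44% higher, 12.6% in all). In all, 27 members had a negative log2 fold change (55.1%, against 48.4% of all genes) and 22 a positive one. The median was -0.06, against 0.01 over all genes tested. These shares describe the list and were not tested.

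Most members were measured closely enough to bound the difference. For 36 of 49 the 95% interval of the fold change lay within 1.5-fold either way. The ER-to-Golgi Rab Rab2a had a fold of 1.0 with an interval of 0.899 to 1.11, and Rab11a one of 0.954 (0.858 to 1.06). The interval reached past 2-fold for 4 low members, Rab3b, Rab19, Rab37 and Rab39b, whose difference is therefore poorly bounded at this depth.

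**Figure D2:**
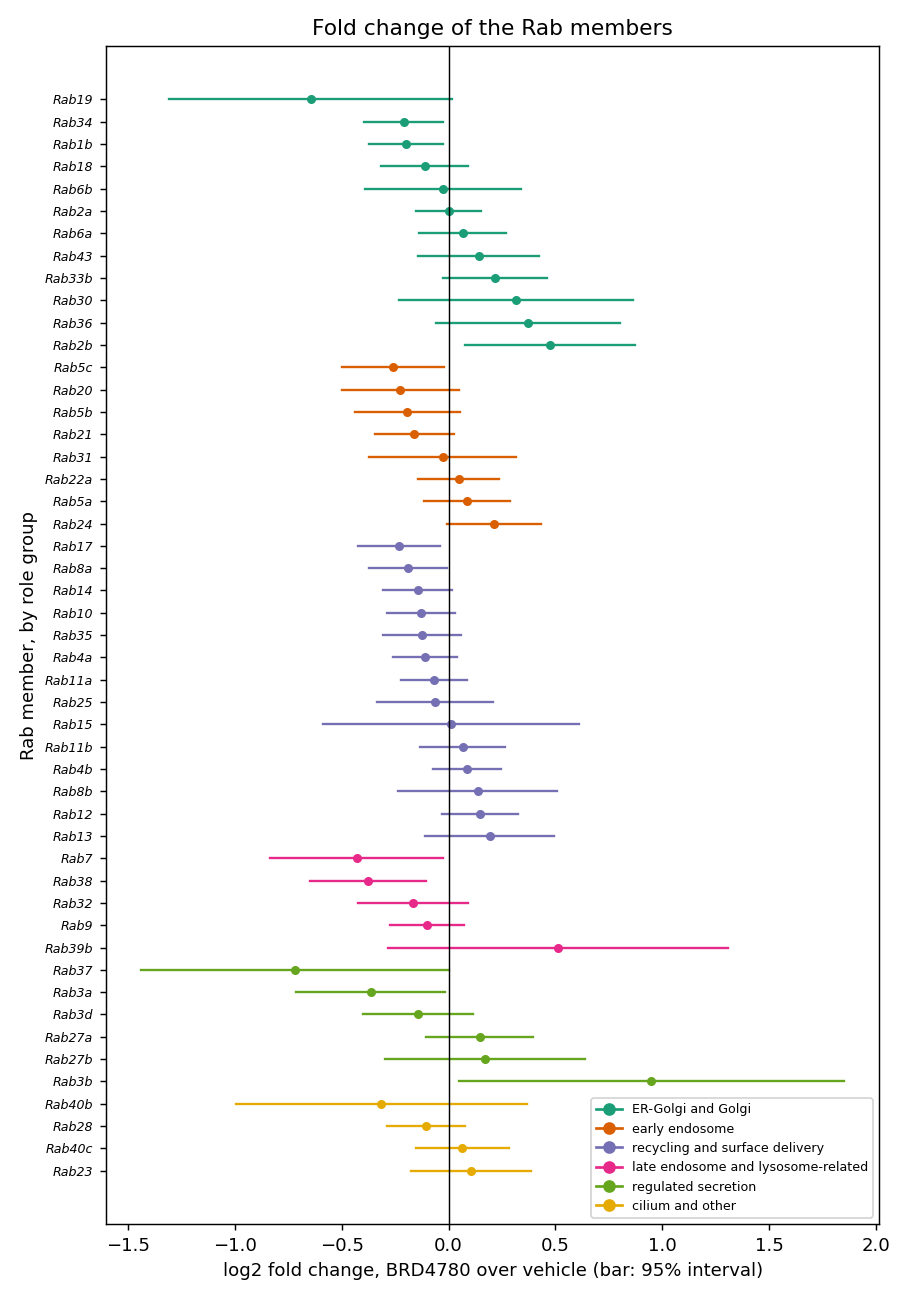
Log2 fold change of each Rab member, BRD4780 over vehicle, ordered within its role group; the bar is the 95% interval of edgeR's quasi-likelihood fit. Most intervals cross 0, and the widest belong to the low genes Rab3b, Rab39b, Rab37 and Rab40b.

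The treated libraries spread more widely than the vehicle libraries, which is given as a description with no test. The median coefficient of variation of a member was 7.09% in the vehicle group and 11.6% in the BRD4780 group, and it was larger with treatment for 38 of 49 members (77.6%, against 69.9% of all genes). Without BRD4780 replicate 3 it was larger for 36 of 49 (73.5%), against 55.2% of all genes. Rab5c showed the contrast most plainly, since its vehicle libraries had a coefficient of variation of 0.424% and its treated libraries ran from 207 to 300.3 CPM. The highest of these was BRD4780 replicate 3, and without it the treated libraries ran from 207 to 240.1 CPM.

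The summed level of the 49 members was 2651 to 2755 CPM in the vehicle libraries and 2353 to 2624 CPM in the treated ones, with no overlap. The groups were also apart with the scaling of DESeq2 and with upper quartile scaling, but with plain library totals they overlapped, at 2600.3 to 2662 and 2451 to 2697 CPM. A sum of CPM gives most weight to the most abundant members. With members weighted equally, as the mean log2 CPM (TMM) minus the vehicle mean, the groups overlapped. That mean was -0.080 to 0.040 in the vehicle libraries and -0.096 to 0.024 in the treated ones. Whole-kidney RNA cannot tell fewer cells of a type from less RNA per cell, so every value here is a level in the tissue.

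**Figure D3:**
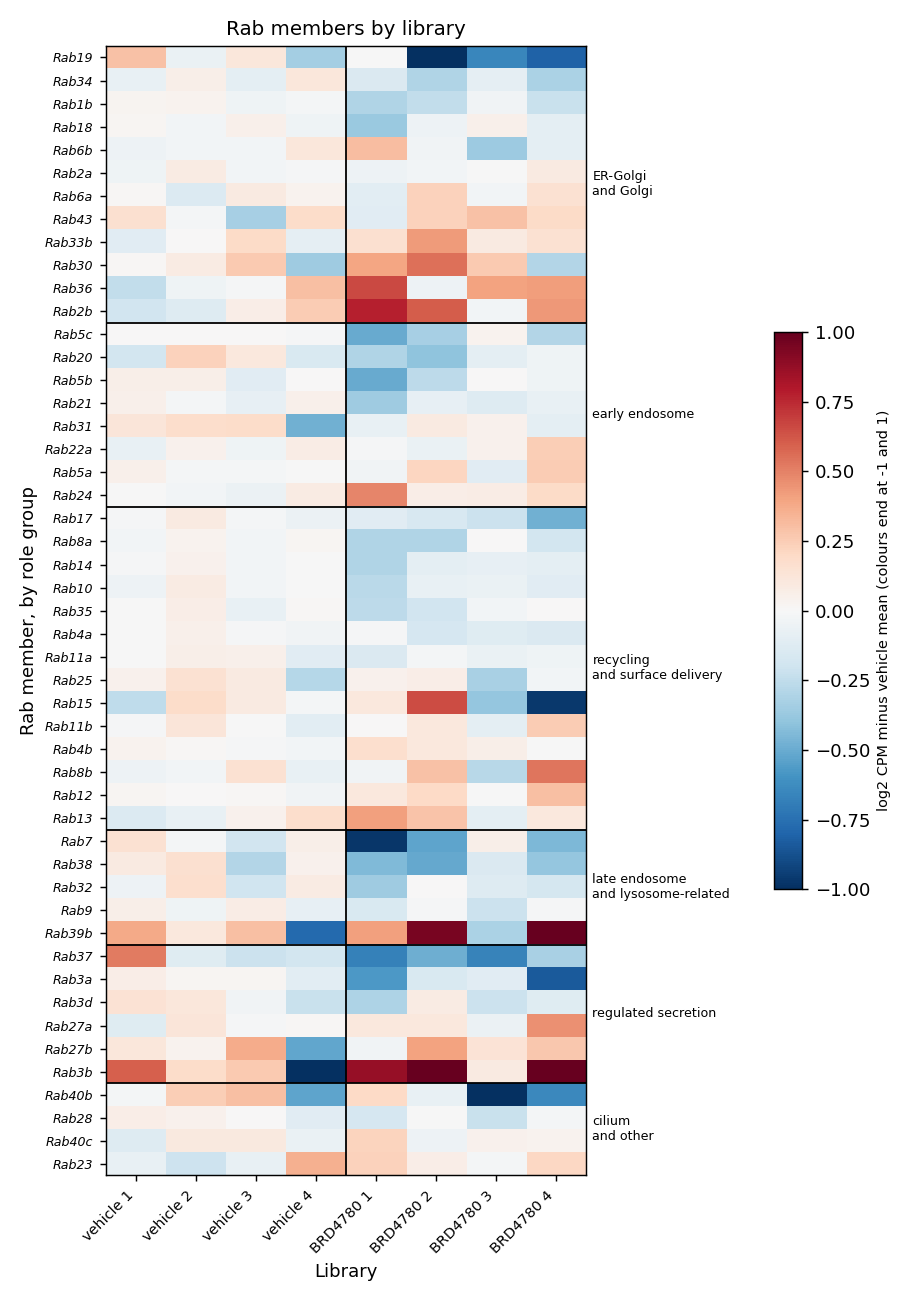
Log2 CPM of each Rab member in each library minus its vehicle mean, by role group (colours end at -1 and 1). Blue rows such as Rab7, Rab38, Rab5c and Rab1b are palest or faintly red in BRD4780 replicate 3, and Rab2b is red in the other 3 treated libraries.

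Among the 12 Rabs of the ER-Golgi step and the Golgi, 5 had a negative and 7 a positive fold change (median 0.03). Rab1b, which directs vesicles from the ER to the Golgi (chr19:5099205-5107072 on GRCm38), stood at 249.8, 252, 238 and 242 CPM in the vehicle libraries and at 199, 207, 239 and 210.3 CPM in the treated ones. The treated libraries lay below every vehicle library except replicate 3, which was within the vehicle range, and the difference did not pass (log2 fold change -0.20 ± 0.08, adjusted p = 0.16). Rab34, a Golgi Rab also needed for cilium formation, read 68.3, 74.8, 67.1 and 77.8 CPM in vehicle kidneys and 65.1, 58.4, 67.5 and 57.6 CPM in treated ones, and the groups overlapped narrowly (log2 fold change -0.21 ± 0.08, adjusted p = 0.161).

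Rab2b, the minor paralogue of the Golgi Rab Rab2a, went the other way. It was at 8.0, 8.36, 9.56 and 10.9 CPM in vehicle kidneys and at 15.7, 14.0, 8.98 and 12.4 CPM in treated ones, where replicate 3 again lay inside the vehicle range (log2 fold change 0.48 ± 0.18, adjusted p = 0.148). Rab2b shares 2664 bases of exon with Tox4 and a further gene on the opposite strand, and whether the authors counted by strand is not stated. Rab2a itself was at 192, 209, 194 and 195 CPM in vehicle kidneys and 190.5, 193, 196 and 209 CPM in treated ones (log2 fold change 0.00 ± 0.07, adjusted p = 0.998). The Golgi Rabs Rab6a (0.07 ± 0.09), Rab43 (0.14 ± 0.13), Rab33b (0.22 ± 0.11), Rab30 (0.32 ± 0.25) and Rab36 (0.37 ± 0.19) had positive log2 fold changes with adjusted p of 0.246 or more. Rab43 shares 4164 bases with a gene on the same strand. Rab18 of the ER and lipid droplets had a log2 fold change of -0.11 ± 0.09, Rab6b one of -0.02 ± 0.16, and the low Golgi gene Rab19 one of -0.65 ± 0.30 (adjusted p = 0.211).

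The 8 early endosomal Rabs had a median log2 fold change of -0.09, with 5 negative and 3 positive. Rab5c, which drives fusion of early endosomes (chr11:100715009-100738215), read 295, 294, 294 and 292 CPM in the vehicle libraries. In the treated libraries it read 207, 233, 300.3 and 240.1 CPM. Its treated replicates 1, 2 and 4 lay below all vehicle libraries and replicate 3 above them, and the difference did not pass (log2 fold change -0.26 ± 0.11, adjusted p = 0.171). Its paralogue Rab5b was at 129.5, 130.1, 115 and 125 CPM in vehicle kidneys and 87.7, 104, 125 and 121 CPM in treated ones, with overlapping groups (log2 fold change -0.19 ± 0.11, adjusted p = 0.301). Rab5a, whose start is preceded by the pair of E-boxes shown above, was at 67.6, 64.2, 64.3 and 65.0 CPM in vehicle kidneys and 63.7, 75.9, 60.5 and 78.0 CPM in treated ones, also overlapping (log2 fold change 0.09 ± 0.09, adjusted p = 0.588).

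Of the other early endosomal Rabs, Rab21, which acts in integrin uptake and carries an E-box near its start, was at 47.5, 45.2, 43.4 and 47.6 CPM in vehicle kidneys and 35.8, 43.3, 42.0 and 43.7 CPM in treated ones (log2 fold change -0.16 ± 0.08, adjusted p = 0.255). Only treated replicate 1 was clearly below the vehicle range. Rab24, a Rab linked to autophagy, was at 57.4, 56.6, 55.4 and 61.1 CPM in vehicle kidneys and 80.6, 60.5, 60.5 and 65.8 CPM in treated ones (log2 fold change 0.21 ± 0.10, adjusted p = 0.214), its highest value being in treated replicate 1. It shares 1258 bases of exon with Prelid1 on the opposite strand. Rab20, Rab22a and Rab31 had log2 fold changes of -0.23 ± 0.12, 0.05 ± 0.09 and -0.03 ± 0.16, with adjusted p of 0.282 or more.

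The 14 Rabs of recycling and surface delivery had a median log2 fold change of -0.06, with 8 negative and 6 positive. Rab17, a Rab of polarised epithelia that serves apical recycling (chr1:90958133-90969661), was at 69.6, 74.3, 68.9 and 67.3 CPM in vehicle kidneys and at 64.5, 62.5, 60.4 and 50.0 CPM in treated ones. All 4 treated libraries, replicate 3 included, lay below all 4 vehicle libraries, yet the difference did not pass (log2 fold change -0.23 ± 0.09, adjusted p = 0.146). The groups were also apart for Rab14, which moves cargo between the Golgi and endosomes, at 162, 169, 161 and 163 CPM in vehicle kidneys and 133, 153, 155 and 153 CPM in treated ones (log2 fold change -0.14 ± 0.07, adjusted p = 0.248), with treated replicate 1 well under the others. For Rab10, a Rab of basolateral and GLUT4 vesicle delivery, they were apart by a narrow margin, at 108, 119, 110.4 and 112 CPM in vehicle kidneys and 93.2, 107, 107 and 104 CPM in treated ones (log2 fold change -0.13 ± 0.07, adjusted p = 0.29).

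Rab8a, which delivers vesicles to the surface and the cilium, was at 109, 113, 108 and 112 CPM in vehicle kidneys and at 89.7, 90.05, 111 and 97.2 CPM in treated ones. Treated replicates 1, 2 and 4 were below the vehicle range and replicate 3 within it (log2 fold change -0.19 ± 0.08, adjusted p = 0.184). Its paralogue Rab8b had a log2 fold change of 0.14 ± 0.17. The recycling endosome Rabs Rab11a (-0.07 ± 0.07), Rab11b (0.07 ± 0.09) and Rab25 (-0.06 ± 0.12) lay near 0 with intervals inside 1.5-fold, and Rab11a overlapped between groups (125, 131, 130.3 and 116 CPM in vehicle kidneys and 113, 124, 120.1 and 122 CPM in treated ones). The fast recycling pair differed in sign, with Rab4a at -0.11 ± 0.07 and Rab4b at 0.09 ± 0.07. Rab35, Rab15, Rab12 and Rab13 had log2 fold changes of -0.12, 0.01, 0.15 and 0.19, with adjusted p of 0.279 or more. Rab15 varied most among the treated libraries, from 5.35 to 16.7 CPM.

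Of the 5 Rabs of late endosomes and lysosome-related organelles, 4 had a negative fold change (median -0.17). Rab7, which controls the passage from late endosome to lysosome (chr6:87999106-88045270), was at 65.3, 57.9, 51.3 and 61.3 CPM in vehicle kidneys and at 29.9, 40.8, 61.3 and 43.0 CPM in treated ones. Treated replicates 1, 2 and 4 were below all vehicle libraries, and replicate 3 equalled vehicle replicate 4 to 3 digits (log2 fold change -0.43 ± 0.18, adjusted p = 0.181). Its fold, 0.742 with an interval of 0.561 to 0.982, was the lowest of any member apart from the low genes Rab19 and Rab37. Part of its exon sequence, 204 bases, lies opposite the predicted gene Gm5577.

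Rab38, a Rab of lysosome-related organelles also linked to protein uptake by the proximal tubule (chr7:88430273-88491572), was at 21.9, 23.1, 16.8 and 21.3 CPM in vehicle kidneys and at 15.1, 14.5, 18.7 and 15.7 CPM in treated ones. Vehicle replicate 3 and treated replicate 3 produced the overlap, and this was the smallest adjusted p of any member (log2 fold change -0.38 ± 0.12, adjusted p = 0.105). Its close relative Rab32 (15.7, 18.3, 14.2 and 17.2 CPM in vehicle kidneys and 12.7, 16.3, 14.8 and 14.4 CPM in treated ones) overlapped (log2 fold change -0.17 ± 0.12, adjusted p = 0.394). Rab9, which returns mannose 6-phosphate receptors to the Golgi, overlapped too (48.7, 45.3, 49.3 and 44.2 CPM in vehicle kidneys and 42.1, 46.4, 40.4 and 46.3 CPM in treated ones, log2 fold change -0.10 ± 0.08, adjusted p = 0.445), and the low gene Rab39b had a log2 fold change of 0.51 ± 0.36.

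The 6 Rabs of regulated secretion were evenly divided in sign (median 0.00). Rab3a, a Rab of secretory vesicle exocytosis, was at 13.0, 12.5, 12.5 and 11.5 CPM in vehicle kidneys and at 8.28, 11.1, 11.4 and 6.86 CPM in treated ones. The groups were apart by a very narrow margin, between vehicle replicate 4 and treated replicate 3 (log2 fold change -0.36 ± 0.16, adjusted p = 0.184). Its paralogue Rab3b pointed the other way, at 1.79, 1.33, 1.4 and 0.517 CPM in vehicle kidneys and 2.19, 3.29, 1.24 and 3.35 CPM in treated ones, with treated replicate 3 inside the vehicle range (log2 fold change 0.95 ± 0.41, adjusted p = 0.185). In the Rab3 subfamily, the share of Rab3b in the summed level per kb was 3.20% ± 1.18 with vehicle and 7.61% ± 3.07 with BRD4780, and Rab3d (-0.14 ± 0.12) held most of the remainder beside Rab3a. Rab37, close to the count minimum, was at 0.969, 0.589, 0.548 and 0.561 CPM in vehicle kidneys and 0.372, 0.436, 0.376 and 0.502 CPM in treated ones, with groups apart (log2 fold change -0.72 ± 0.32, adjusted p = 0.204). The exocytic Rab Rab27a overlapped, at 19.9, 23.6, 21.6 and 21.8 CPM in vehicle kidneys and 23.3, 23.4, 20.8 and 29.8 CPM in treated ones (log2 fold change 0.15 ± 0.11, adjusted p = 0.441), and Rab27b had a log2 fold change of 0.17 ± 0.21.

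The 4 remaining members were 2 Rabs tied to the cilium and 2 Rab40 genes, whose proteins carry a SOCS box and join ubiquitin ligases. Rab23, an antagonist of Hedgehog signalling, was at 21.5, 19.6, 21.6 and 29.1 CPM in vehicle kidneys and 26.6, 23.8, 22.4 and 26.3 CPM in treated ones, and Rab28 at 33.2, 32.6, 31.7 and 29.3 CPM in vehicle kidneys and 28.1, 31.6, 27.2 and 31.3 CPM in treated ones. The groups overlapped for both (log2 fold change 0.10 ± 0.13, adjusted p = 0.641 and log2 fold change -0.11 ± 0.08, adjusted p = 0.451). Rab40b (2.37, 2.87, 2.98 and 1.64 CPM in vehicle kidneys and 2.77, 2.28, 1.16 and 1.51 CPM in treated ones) and Rab40c (17.3 ± 1.37 CPM in vehicle kidneys and 18.1 ± 1.47 CPM in treated ones) overlapped as well, with log2 fold changes of -0.31 ± 0.31 and 0.07 ± 0.10.

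**Figure D4:**
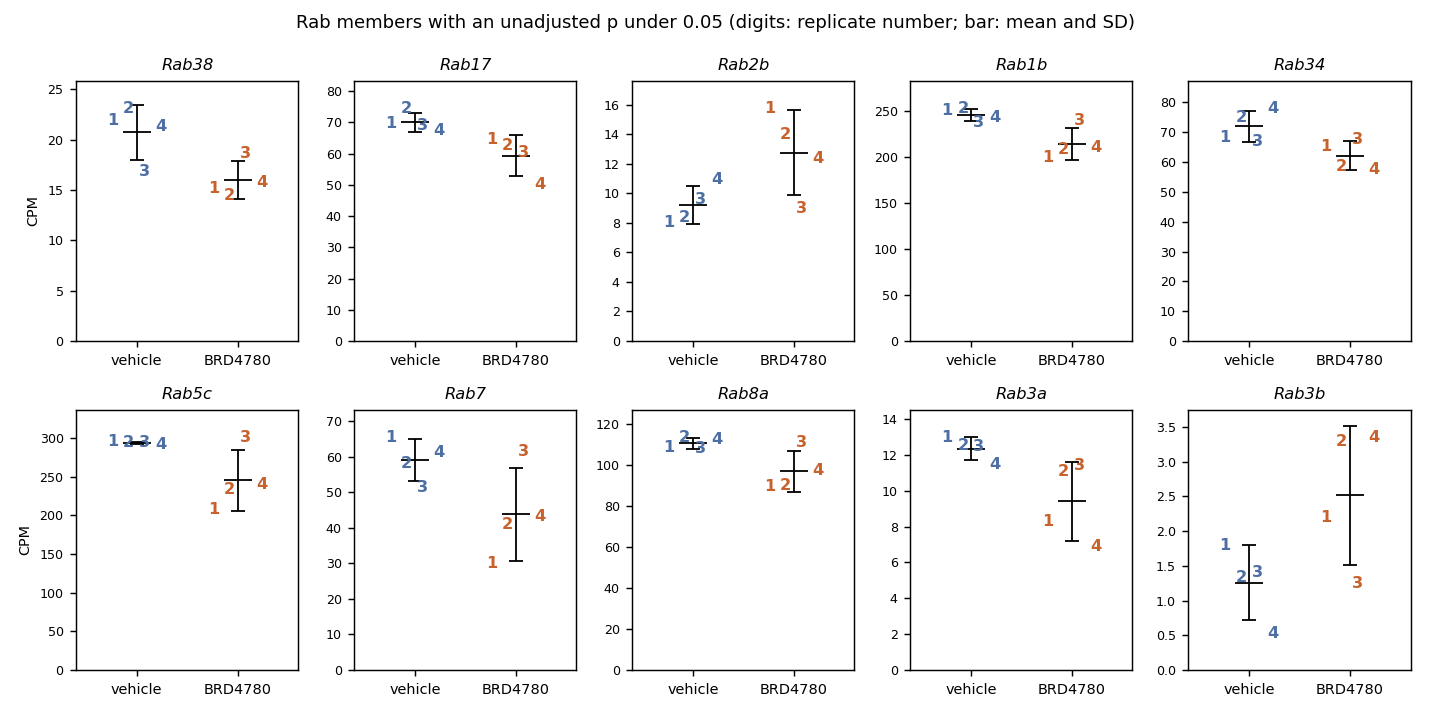
CPM of the 10 Rab members with an unadjusted p under 0.05; digits are replicate numbers, and the bar is the mean and SD of 4 libraries. In Rab5c, Rab7, Rab1b, Rab8a, Rab34, Rab38, Rab2b and Rab3b, BRD4780 replicate 3 lies within the vehicle range or, for Rab5c, just above it. In Rab17 and Rab3a it lies below that range.

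In edgeR's test, whether any Rab member was called turned on BRD4780 replicate 3. Without it, 3184 of 13558 genes passed (23.5%), and among the 49 members 2 rose and 5 fell, 7 in all. Rab5c (log2 fold change -0.37, adjusted p = 0.00498), Rab7 (-0.65, adjusted p = 0.00658) and Rab38 (-0.47, adjusted p = 0.0183) fell. Rab1b (-0.26, adjusted p = 0.0157) and Rab8a (-0.27, adjusted p = 0.0170) also fell, while Rab2b (0.62, adjusted p = 0.0119) and Rab3b (1.19, adjusted p = 0.0395) rose. The share called, 7 of 49, was below the 23.5% of all genes. BRD4780 replicate 3 had been singled out from these same counts. The adjusted p-values of the fit without it therefore depend on that choice and serve as a description only. Limma-voom, which gave this library the lowest weight of the 8 (0.280), called 1 member higher (Rab2b) and 6 lower (Rab1b, Rab5c, Rab7, Rab8a, Rab19 and Rab38), beside 23.4% of all genes. With any other library left out, 0 members passed, where 0.229% to 1.7% of all genes did. The count at an unadjusted p under 0.05 also moved. The share of all genes under it in the same fits is not given here, so these counts only describe the members. With vehicle replicates 1 to 4 left out in turn it was 3, 1, 5 and 5 lower and 1, 0, 2 and 3 higher, and with BRD4780 replicates 1 to 4 left out in turn 4, 3, 10 and 2 lower and 0, 2, 7 and 1 higher. The median of the members ran from -0.12 without vehicle replicate 4 to -0.037 without vehicle replicate 2.

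Replicate 3 was not the highest treated library for every member that tended lower. It was so for 11 of the 27 members with a negative fold change, against 49.4% of all genes with one, and the lowest treated library of those 27 was most often replicate 1 (14 of 27, against 29.3% of such genes). The remaining 16 were highest in replicate 1 (5), 2 (7) or 4 (4).

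The genes that load, switch and read the Rabs were taken from a list of 174 by textbook role, of which 169 were tested. Of these, 6 rose and 1 fell, 4.14% in all beside 2.92% of all genes. No gene among 11 of prenylation and membrane extraction or 51 exchange factors passed. Among 38 GTPase-activating proteins 1 rose, and among 69 effectors and tethers 5 rose and 1 fell.

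The largest change was in Myrip, which links Rab27a to myosin and actin on secretory granules. It was at 1.18, 1.25, 0.609 and 1.51 CPM in vehicle kidneys and at 3.85, 4.9, 2.85 and 3.85 CPM in treated ones, with every treated library above every vehicle library (3.33-fold, log2 fold change 1.74 ± 0.28, adjusted p = 0.0173). Rab27a itself did not pass. Myo5a, a motor recruited to Rab27a granules, fell, from 74.5, 75.0, 79.7 and 68.1 CPM with vehicle to 51.6, 47.2, 65.0 and 50.4 CPM with BRD4780, again without overlap (0.722-fold, log2 fold change -0.47 ± 0.10, adjusted p = 0.0452). Myo5b, its epithelial paralogue and a Rab11 and Rab8 effector, was at 153 ± 12.3 CPM in vehicle kidneys and 129 ± 18.7 CPM in treated ones, a difference that did not pass (adjusted p = 0.201) and that is outside the rule for named genes, having been picked after its value was seen.

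The golgins, long coiled-coil tethers that bind Golgi Rabs, supplied 3 of the increases. Golgb1 (giantin) was at 103, 96.1, 107 and 116 CPM in vehicle kidneys and at 233, 167, 122 and 193 CPM in treated ones (1.69-fold, log2 fold change 0.76 ± 0.17, adjusted p = 0.044). Golga2 (GM130), a partner of Rab1, was at 63.9, 65.0, 61.0 and 64.5 CPM in vehicle kidneys and 89.8, 99.8, 71.8 and 91.5 CPM in treated ones (1.39-fold, log2 fold change 0.47 ± 0.10, adjusted p = 0.0379). Golga5 (golgin-84) was at 35.2, 40.2, 38.6 and 37.2 CPM in vehicle kidneys and 52.7, 58.5, 45.6 and 66.4 CPM in treated ones (1.47-fold, log2 fold change 0.55 ± 0.11, adjusted p = 0.0337). The groups were apart for all 3, and treated replicate 3 was the lowest treated library for each. Golgb1 shares 613 bases with genes on the same strand and Golga2 98 bases with Swi5 on the opposite one.

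Plekhm2, which couples lysosomes to kinesin, rose from 50.7, 53.2, 54.3 and 65.7 CPM with vehicle to 96.1, 76.7, 83.7 and 83.7 CPM with BRD4780, with groups apart and replicate 3 in the middle of the treated libraries (1.52-fold, log2 fold change 0.60 ± 0.10, adjusted p = 0.0191). Rab3gap2, the regulatory subunit of a complex that switches off Rab3 and exchanges nucleotide on Rab18, rose from 27.8, 26.7, 27.2 and 27.2 CPM with vehicle to 39.4, 40.0, 31.1 and 39.3 CPM with BRD4780 (1.37-fold, log2 fold change 0.46 ± 0.09, adjusted p = 0.0352). Its groups were apart, and 2080 bases of it lie opposite other genes. The catalytic subunit Rab3gap1 overlapped, at 48.4 ± 1.83 CPM in vehicle kidneys and 57.4 ± 5.58 CPM in treated ones (adjusted p = 0.12), a gene also added after its value was seen.

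**Figure D5:**
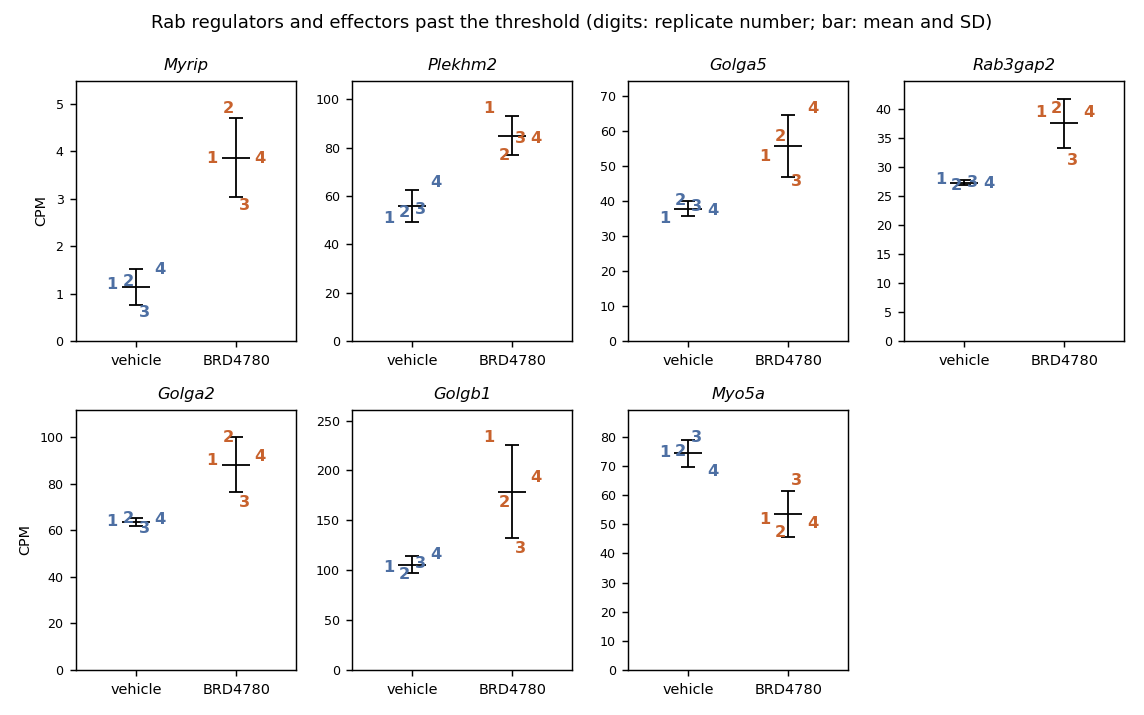
CPM of the 7 Rab regulators and effectors past the threshold; digits are replicate numbers and the bar is the mean and SD of 4 libraries. The groups do not overlap for any of the 7, and BRD4780 replicate 3 is the treated library nearest the vehicle group for all but Plekhm2.

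The genes with the smallest p of their class among those that did not pass had the following values. Tbc1d17, a GTPase-activating protein, was at 65.7, 68.3, 64.3 and 70.2 CPM in vehicle kidneys and 97.6, 90.3, 72.7 and 96.9 CPM in treated ones, with groups apart (adjusted p = 0.0521), and shares 3512 bases with genes on the opposite strand. The exchange factor Als2cl was at 41.7 ± 7.34 CPM in vehicle kidneys and 65.7 ± 16.6 CPM in treated ones (adjusted p = 0.0729), and Dennd3, an exchange factor for Rab12, at 40.9 ± 8.92 CPM in vehicle kidneys and 59.5 ± 10.1 CPM in treated ones (adjusted p = 0.0941). Pde6d, a carrier of prenylated proteins, was at 20.9, 20.1, 21.7 and 21.04 CPM in vehicle kidneys and 16.3, 14.1, 18.9 and 16.9 CPM in treated ones, with groups apart (adjusted p = 0.0869). Rabac1, which frees Rabs from their dissociation inhibitor, was at 131 ± 10.3 CPM in vehicle kidneys and 158 ± 23.4 CPM in treated ones (adjusted p = 0.183). The dissociation inhibitor gene Gdi2 had a narrow interval around 1, with a fold of 1.04 (0.917 to 1.18), and so had the subunits of the Rab prenylating enzyme, Rabggta (1.01, 0.85 to 1.19) and Rabggtb (1.04, 0.94 to 1.16). These 3 were added for their role, outside the rule for named genes.

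The calls among regulators and effectors depended on every library, as did those over all genes. With vehicle replicates 1 to 4 left out in turn, 0, 0, 1 and 2 genes passed, beside 0.472%, 0.229%, 0.637% and 1.7% of all genes. With BRD4780 replicates 1, 2 and 4 left out in turn, 0, 1 and 1 passed, beside 0.485%, 0.488% and 0.607% of all genes. Without BRD4780 replicate 3, 47 of 169 passed (24 rose and 23 fell), the 7 named above among them. That was 27.8%, beside 23.5% of all genes in the same fit, a difference that was not tested.

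Set beside the coats of the vesicles that Rabs tether, the Rab members had fewer calls. Of 15 genes of the COPII coat of ER export, 5 rose (median 0.27), and of 16 of the COPI coat of retrograde transport, 5 rose (median 0.31). In the TMED family of cargo receptors, to which the described target of BRD4780 belongs, 1 of 10 tested rose (median 0.03). None of these fell. Over all genes tested, 2.3% were called higher and the median was 0.01. How the calls of the coat and TMED lists moved with each library left out is not given here. The difference between the lists was not tested, and all of them come from the same fit and the same 8 libraries.

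Markers of several nephron segments and of other cell types differed between the same libraries, and their part in the Rab values was not tested. The summed level of 10 podocyte markers was 145 to 240.4 CPM with vehicle and 309 to 411 CPM with BRD4780 (4 rose), and that of 12 endothelial markers 227 to 418 and 474 to 619 CPM (4 rose). For 8 thick ascending limb markers it was 3656 to 4856 and 2499 to 3917 CPM (3 fell). For 12 proximal tubule markers it was 18275 to 19360.5 and 16877 to 23656 CPM, the highest being BRD4780 replicate 3 (1 rose). For 6 distal convoluted tubule markers it was 624 to 929 and 821 to 1209 CPM (1 rose). Collecting duct principal cell (781 to 1113 and 553 to 1013 CPM), intercalated cell (259 to 275 and 220.2 to 274 CPM), immune cell (704 to 774 and 514 to 759.8 CPM) and fibroblast markers (124 to 147 and 131 to 170.2 CPM) had no called gene. Nor did erythrocyte (477 to 1576 and 154 to 782 CPM), adipocyte (90.7 to 324 and 52.5 to 226 CPM) or urothelial markers (24.3 to 42.4 and 13.4 to 33.6 CPM). No marker found in the table was at 0 in all libraries.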

How the data were processed

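RNA of 8 mouse kidneys was sequenced in bulk, per the labels' protocols from oligo-dT selected mRNA in stranded libraries. The values the authors deposited are estimated counts (expected counts) per gene, not normalized, and 15.1% to 28.9% of those of a library were not whole. Per the submitters' processing notes, STAR 2.5.2b, RSEM 1.3.0 and Picard were used; of the builds listed there, mm10 and hg19, neither has a stated role. The annotation and the strand setting are not given in these sources. Where counting ignored strand, reads of overlapping genes on opposite strands cannot be told apart, which touches 14 of the 49 Rab members. The 22121 lines were collapsed to 21759 genes, since 343 symbols stood on several identical lines, and 1 column of per-sample values was not used.

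Counts were rounded to whole numbers, filtered with filterByExpr (minimum count 10), scaled by TMM and compared by edgeR 4.0.16 (R 4.3.3), quasi-likelihood F-test, over all 8 libraries with no covariate. The threshold was 0.05 after Benjamini-Hochberg adjustment across the 13474 genes kept, and adjusted p-values are from this test unless another is named. Fold changes are BRD4780 over vehicle and carry the standard error. Exon lengths, coordinates and overlaps are from GENCODE M21 on GRCm38, in which 21790 of 22116 identifiers were found. No pair of libraries was alike within sampling noise (lowest chi-square per degree of freedom 7.98). Replicate numbers follow the order of deposition. The tests were tried on simulated counts, but the outcome is not given here, so no error rate is claimed for any of them. Alternatives were DESeq2 1.42.0, limma-voom (limma 3.58.1) with quality weights, other scalings and filters, thinning, and leaving out each library.

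The members and gene lists were chosen with earlier results of these data known. Genes were named by rule: in each role group the 3 members with the smallest p and the one with the highest level per kb, members next to the count minimum, and, of regulators and effectors, those past the threshold and the 2 with the smallest p in each class.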

Additional observations from a re-analysis of the deposited data

Results flagged for a closer look

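Single libraries that lay far from the other 3 of their group, by Dixon's criterion at the 95% level, were sought in 66 groups of 4 values, and chance alone flags about 1 in 20 groups. There were 3. Rab14 was at 133 CPM in BRD4780 replicate 1 and at 153 to 155 CPM in the other treated libraries. Rab37, which is close to the count minimum, was at 0.969 CPM in vehicle replicate 1 and at 0.548 to 0.589 CPM in the other vehicle libraries. Rab3gap2 was at 31.1 CPM in BRD4780 replicate 3 and at 39.3 to 40.0 CPM in the other treated libraries.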

How the results depend on the processing

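The Rab members had 0 calls in edgeR under each other scaling and filter, after thinning and with DESeq2, but limma-voom with quality weights called 1 higher and 6 lower, and leaving out 1 library at a time gave 0 to 2 higher and 0 to 5 lower. Their median log2 fold change ran from -0.12 to -0.037 with 1 library left out. Regulators and effectors past the threshold, 6 higher and 1 lower, became 16 and 4 with DESeq2, 11.8% in all beside 10.1% of all genes. With limma-voom they became 22 and 22, which was 26% beside 23.4% of all genes. After thinning to the shallowest library 0 were lower, and leaving out 1 library at a time gave 0 to 24 higher and 0 to 23 lower. Over the whole table the 310 higher and 84 lower genes became 864 and 497 with DESeq2, 1654 and 1501 with limma-voom, and 26 to 1647 and 5 to 1537 with 1 library left out. In the fit on the 4 libraries whose titles share a number with a library of the other group, with that number as a block, 19 genes were higher and 22 lower, no regulator passed, and Rab40b reversed to 0.19; what the numbers mean is not stated. Of the values of single named genes under these alternatives, 444 stayed on their side of the threshold, 27 passed it anew, 54 lost it and 1 reversed; the cause was not tested. Depth was lowest in BRD4780 replicate 4, with 5.74 M counts, where Rab37 had 3 counts.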
